A study of Homo sapiens with 91 samples.

Results

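The T-cell receptor signaling genes described here are 10 human genes, found by matching their symbols to the Ensembl identifiers of the 3 deposited gene tables, out of 62710 genes in each table. They are ZAP70, LCK, CD3D, CD3E, CD3G, CD247, LAT, PTCRA, PTK2B and GIMAP5. All 10 passed the filter on low counts in MOLT4, a line of human T-cell acute lymphoblastic leukemia, and only LAT and PTK2B passed it in PSN1, a pancreatic carcinoma line, and in RH4, a rhabdomyosarcoma line. The study measured total RNA in 91 libraries from these 3 lines, given DMSO as vehicle, the CDK9 inhibitor KB-0742 or the CDK9 degrader KI-CDK9d-32. MOLT4 was sampled at 2, 4 and 8 h under all 3 treatments, with 4 libraries in each group except vehicle at 4 h, which has 3 (replicates 1, 3 and 4). PSN1 had vehicle and KI-CDK9d-32 at 2, 4 and 8 h and KB-0742 at 4 and 8 h, and RH4 had all 3 treatments at 4 and 8 h, with 4 libraries in every group. All groups were grown in the same medium, and the labels give no doses. The design text names RH1 where every sample label names RH4. Each line stands for 1 established tumor line, and cultures were small.

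As background, the T-cell receptor has no enzyme of its own. It signals through the CD3 chains and the zeta chain CD247, whose cytoplasmic tails are phosphorylated by the SRC-family kinase LCK; the kinase ZAP70 docks on the phosphorylated tails and in turn phosphorylates LAT, the membrane scaffold on which the downstream complexes form. PTCRA is the surrogate alpha chain that pairs with the rearranged beta chain in immature thymocytes, PTK2B (PYK2) is a calcium-responsive tyrosine kinase activated below the receptor, and GIMAP5 is a GTPase of the lysosome and endoplasmic reticulum that T cells need for survival. CDK9 is the kinase of P-TEFb, which releases paused RNA polymerase II into elongation.

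The bases before a RefSeq start of 4 members are shown because they stand for the roles described below: CD3D of the receptor complex, LCK and ZAP70 as its kinases, and GIMAP5, which fell with KI-CDK9d-32 at every time. The sequences are RefSeq promoter entries of GRCh38.p14, limited to bases 250 to 51 before the annotated start, written 5′ to 3′ on the gene's strand, with each match to the ETS core AGGAAG, read on either strand, in capitals.
CD3D chr11:118342756-118342955 (minus strand): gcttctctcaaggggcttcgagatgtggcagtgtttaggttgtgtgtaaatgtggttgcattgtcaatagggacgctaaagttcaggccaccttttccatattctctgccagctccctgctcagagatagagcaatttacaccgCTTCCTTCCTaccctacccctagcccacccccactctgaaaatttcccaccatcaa
LCK chr1:32251015-32251214 (plus strand): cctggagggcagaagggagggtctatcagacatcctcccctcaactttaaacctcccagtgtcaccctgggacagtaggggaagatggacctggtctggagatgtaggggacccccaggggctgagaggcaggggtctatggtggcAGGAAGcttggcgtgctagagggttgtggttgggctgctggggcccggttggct
ZAP70 chr2:97713326-97713525 (plus strand): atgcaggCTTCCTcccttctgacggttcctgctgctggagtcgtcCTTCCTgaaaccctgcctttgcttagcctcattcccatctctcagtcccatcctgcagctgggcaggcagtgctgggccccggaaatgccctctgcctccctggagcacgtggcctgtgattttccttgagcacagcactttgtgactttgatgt
GIMAP5 chr7:150737168-150737367 (plus strand): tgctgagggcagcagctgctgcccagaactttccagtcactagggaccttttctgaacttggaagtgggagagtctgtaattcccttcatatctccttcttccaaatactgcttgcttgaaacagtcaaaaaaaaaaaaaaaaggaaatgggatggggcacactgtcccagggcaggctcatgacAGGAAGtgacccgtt
The table held entries for 7 of the 10 members, with 11 start sites between them, and the members without one were CD3E, CD3G and PTK2B. The ETS core occurred in 6 of the 11 windows, and in 23% of all 35116 windows of the same 200 bases. The CD3D and ZAP70 windows held 2 matches each, and those of LCK and GIMAP5 held 1 each. The E-box CAGNTG was found in 6 of the 11 windows, against 36.5% of all windows. The PTCRA window and the ZAP70 window at chr2:97733050-97733249, not shown, held 3 each. The RUNX letters TGTGGT stood in 2, those of CD3D and the LCK window shown, against 8.99% of all, and the TATA box TATAAA in 0 against 7.63%. The matches of CD3D overlap each other. The GIMAP5 window lies before a RefSeq start inside the gene span given below (chr7:150722253-150750033) and covers 20 annotated exon bases. Both strands were searched, a position was counted once, and a match is a description of the letters only.

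In vehicle-treated MOLT4, CD3D was the most abundant of the 10 transcripts and PTK2B the least. Compared per transcript length, as log2(TPM + 1) over the 11 vehicle libraries, CD3D stood at 10.84 ± 0.07 (mean ± SD), followed by CD3E at 7.74 ± 0.13 and LCK at 7.57 ± 0.13. LAT (6.89 ± 0.25), ZAP70 (6.83 ± 0.17) and CD3G (6.27 ± 0.11) came next on the same scale. CD247 (5.34 ± 0.29), GIMAP5 (3.87 ± 0.34), PTCRA (2.98 ± 0.52) and PTK2B (1.81 ± 0.41) were the lowest. The ranges of neighbours overlapped for CD3E and LCK, for LAT and ZAP70, for GIMAP5 and PTCRA and for PTCRA and PTK2B, so those orders do not exceed the spread between libraries. CD3D stood 3.10 log2 units above CD3E with no overlap.

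The members are annotated in GENCODE release 29 (GRCh38) as follows. CD3D (ENSG00000167286, chr11:118338954-118342744, minus strand) and CD3G (ENSG00000160654, chr11:118344344-118355161, plus strand) point away from each other with 1600 bases between their starts, and CD3E (ENSG00000198851, chr11:118304545-118316175) lies in the same chromosome 11 region. CD247 (ENSG00000198821) is at chr1:167430640-167518610, LCK (ENSG00000182866) at chr1:32251239-32286165 and ZAP70 (ENSG00000115085) at chr2:97713560-97739862. LAT (ENSG00000213658) is at chr16:28984826-28990783, PTCRA (ENSG00000171611) at chr6:42915989-42925835 and GIMAP5 (ENSG00000196329) at chr7:150722253-150750033. LAT overlaps the antisense gene AC109460.4 and, on its own strand, the transcript AC109460.3. GIMAP5 overlaps GIMAP1 and the read-through gene GIMAP1-GIMAP5, both on its own strand. Reads of these genes could be split or shared. For the antisense gene this holds because the libraries carry no strand.

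The other lines carried almost none of these transcripts. In the vehicle libraries at 4 and 8 h (7 in MOLT4, 8 in each other line), ZAP70, LCK, CD3D, CD3E, CD3G, PTCRA and GIMAP5 had 0 counts in PSN1 and in RH4. With a floor of 3 counts over each group, CD3D was at least 7796-fold higher in MOLT4 than in PSN1 and at least 8458-fold higher than in RH4. By the same floor the bounds for GIMAP5 were 200.2-fold and 217-fold, and those for PTCRA 49.2-fold and 53.4-fold. Of the genes with counts elsewhere, LAT averaged 218 ± 24.6 CPM (counts scaled to library size; SD) in MOLT4, 7.31 ± 4.05 in PSN1 and 2.97 ± 2.81 in RH4. CD247 averaged 83.8 ± 14.8, 1.34 ± 1.58 and 0.181 ± 0.377. The fitted CD247 differences were 5.89 and 8.48 log2 units, and 6.66 without PSN1 vehicle replicate 4 at 8 h and 9.71 without RH4 vehicle replicate 1 at 4 h. PTK2B broke the pattern: PSN1 held more of it (30.5 ± 7.43) than MOLT4 (14.5 ± 6.18), which held more than RH4 (3.77 ± 1.52). In edgeR's quasi-likelihood test PTK2B differed by -1.06 ± 0.22 (SE, adjusted p = 8.18e-05) log2 units between MOLT4 and PSN1, and by 1.92 ± 0.26 (SE, adjusted p = 5.7e-08) between MOLT4 and RH4. Of the 9 members tested (PTCRA fell below the filter), 8 were higher in MOLT4 than in PSN1 beside 30.2% of all 12524 genes, and 9 were higher than in RH4 beside 30.0%. ZAP70, LCK, CD3D, CD3E, CD3G and GIMAP5, at 0 counts in both other lines, could pass the filter only through MOLT4. CD247, with 27 counts over the PSN1 and 4 over the RH4 libraries, also did not pass the filter in either of those lines. The direction of all of these genes was fixed by that filter, so these counts are a description and not a test.

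**Figure D1:**
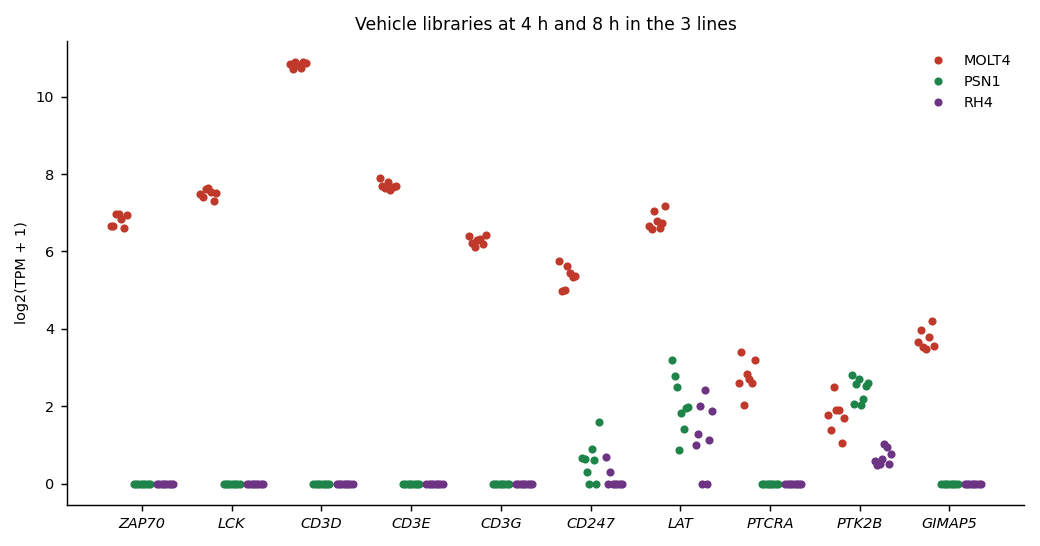
Level of each gene in the vehicle libraries at 4 and 8 h, as log2(TPM + 1), where each point is 1 library of MOLT4 (7), PSN1 (8) or RH4 (8). CD3D is the highest gene in MOLT4, 7 of the 10 genes lie at 0 in every PSN1 and RH4 library shown, and PTK2B is higher in PSN1 than in MOLT4.

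The labelled cell types were checked against markers. The T-lineage list of 14 genes passed the filter whole in MOLT4, where its summed level was 4447 to 9667 CPM per library, and reached 3.3 to 15.7 in RH4 and 133 to 406 in PSN1, where TRBC2 carried most of it. Markers of B, myeloid and natural killer cells summed to at most 8.19, 26.7 and 11 CPM in any MOLT4 library. Gene counts per MOLT4 library ran from 1598283 to 3240753. Spike-in RNA, added in equal amount to every lysate, took 14.5% ± 1.91 (SD, n = 4) of the counts in MOLT4 vehicle at 8 h and 39.9% ± 14.8 with KI-CDK9d-32 at 8 h, with 61.5% in replicate 3 of that group. Replicates 3 of vehicle at 4 h (21.2%), KI-CDK9d-32 at 4 h (39.5%) and KB-0742 at 4 h (49.4%) also stood over 1.5 times above the median of their groups. Results against vehicle, between compounds and over time are given with and without these 4 libraries where that changes the call of a member.

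With TMM scaling a change is one of a transcript's share among all transcripts, and "rose" and "fell" mean such a change with an adjusted p under 0.05. Scaled to the spike-in RNA instead, the median of all 11664 genes lay at -0.41, -1.13 and -2.99 log2 units with KI-CDK9d-32 at 2, 4 and 8 h, against -0.02, -0.11 and -0.18 with TMM. With KB-0742 the spike-in medians were -0.86, -1.38 and -1.41. On that scale no member was called higher than vehicle with either compound at any time, and all 10 were called lower with KI-CDK9d-32 at 8 h, when 10609 of all genes were lower and 100 higher. With KB-0742 at 8 h, 9 members were called lower on the spike-in scale, beside 6332 of all genes lower and 71 higher. In such bulk samples fewer cells and less RNA per cell cannot be told apart.

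With KI-CDK9d-32 the receptor chains other than CD247, ZAP70 and later PTK2B rose in share, LAT and LCK fell late, and GIMAP5 fell from the first time point. Of the 10 members, 3 rose and 1 fell at 2 h, beside 4.57% of all genes higher and 5.41% lower. At 4 h 4 rose and 1 fell, beside 13.6% and 18.9%. At 8 h 6 rose and 3 fell, beside 20.8% and 28.7%. With KB-0742 CD3D, CD3E, CD3G and LCK rose at 2 and 4 h and none of them was above vehicle by the test at 8 h. With that compound 4 rose and 1 fell at 2 h (all genes 13.2% and 12.9%), 4 rose and 3 fell at 4 h (18.1% and 17.7%), and 0 rose and 5 fell at 8 h (23.4% and 25.8%). The members' median log2 change at 8 h was 0.33 for the degrader and -0.49 for the inhibitor, where all genes had -0.18 and -0.10. Both compounds were compared with the same vehicle libraries at each time, so their values are given side by side.

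**Figure D2:**
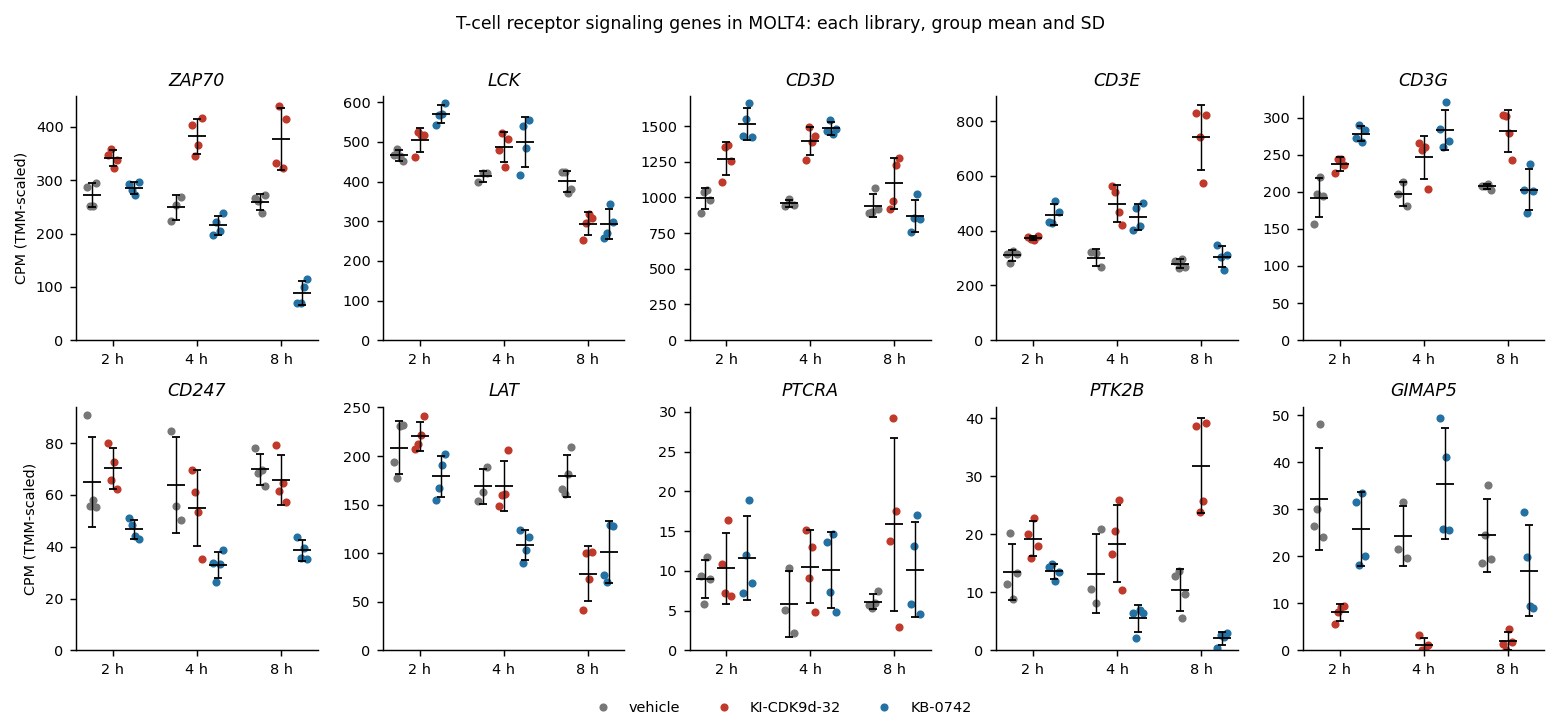
CPM (TMM-scaled, linear axes from 0) of each gene in every MOLT4 library at 2, 4 and 8 h under vehicle, KI-CDK9d-32 or KB-0742, with the group mean and SD as bars. ZAP70, CD3E and PTK2B separate the compounds at 8 h, and GIMAP5 is near 0 with KI-CDK9d-32 at 4 and 8 h.

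**Figure D3:**
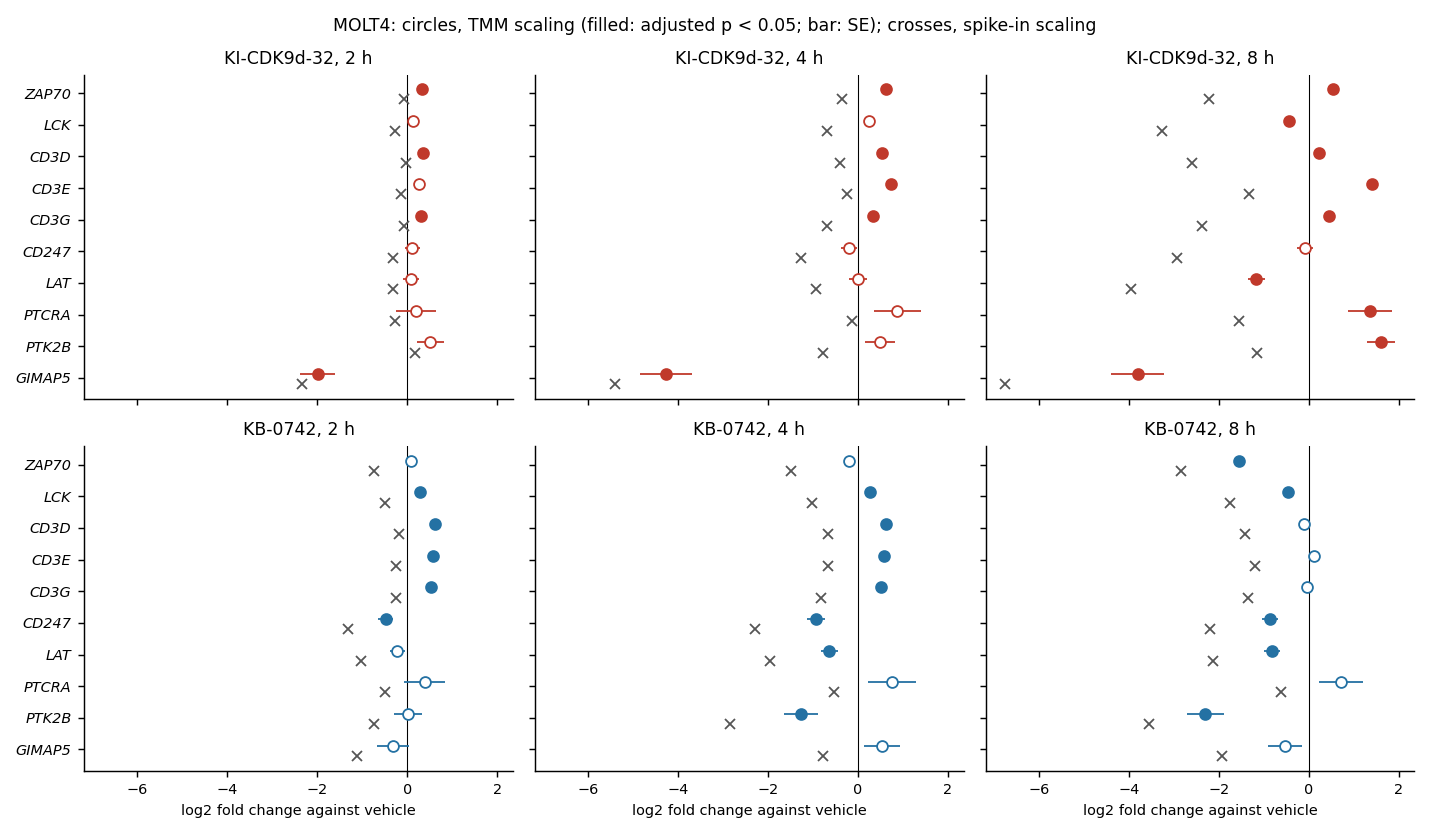
Log2 fold change against vehicle in MOLT4 by compound and time. Circles with SE bars are TMM values, filled where the adjusted p is under 0.05, and crosses are spike-in values, which lie to the left of the circle for every gene.

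The CD3 chains carry the activation motifs of the receptor, and with KI-CDK9d-32 at 4 and 8 h CD3E rose more than CD3D and CD3G under TMM scaling, while on the spike-in scale it was the least lowered of them. In vehicle at 8 h CD3E stood at 289, 263, 296 and 267 CPM in replicates 1 to 4, with KI-CDK9d-32 at 829.7, 741, 575 and 822, and with KB-0742 at 349, 302, 256 and 309.7. Every KI-CDK9d-32 library lay above every vehicle library, while the KB-0742 range overlapped vehicle. CD3E rose with KI-CDK9d-32 by 1.41 ± 0.10 (SE, adjusted p = 1.06e-16) at 8 h on the log2 scale, and by 0.73 ± 0.11 (SE, adjusted p = 6.95e-07) at 4 h, against spike-in values of -1.33 and -0.24, so the direction turned with the scaling while CD3E stayed above the median gene. At 2 h its groups did not overlap, but 0.27 ± 0.10 (adjusted p = 0.0848) did not pass, and without the libraries of high spike-in share it did (0.28, adjusted p = 0.0323). With KB-0742 CD3E rose at 2 h (0.57 ± 0.10 SE, adjusted p = 1.93e-05) and 4 h (0.58 ± 0.11 SE, adjusted p = 3.35e-05), with spike-in values of -0.25 and -0.67, and at 8 h it stood at 0.13 ± 0.10 (adjusted p = 0.32).

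CD3D, the most abundant chain, was at 894, 1039, 1055 and 982 CPM in the vehicle libraries at 2 h, at 1111, 1356, 1366 and 1257 with KI-CDK9d-32 and at 1432, 1546, 1663 and 1424 with KB-0742. Both compounds' libraries lay above all vehicle libraries. CD3D rose by 0.36 ± 0.09 (SE, adjusted p = 0.00504) for KI-CDK9d-32 and 0.61 ± 0.09 (SE, adjusted p = 4.38e-07) for KB-0742 at 2 h, where the spike-in values were -0.03 and -0.20. At 4 h the rises were 0.54 ± 0.10 (adjusted p = 1.76e-05) and 0.63 ± 0.10 (adjusted p = 8.93e-07), with spike-in values of -0.41 and -0.66. By 8 h the groups overlapped: vehicle was at 889.9, 896, 1065 and 919, KI-CDK9d-32 at 918, 974, 1226 and 1276 and KB-0742 at 757, 855, 1024 and 851. The KI-CDK9d-32 rise at 8 h of 0.22 ± 0.09 (SE, adjusted p = 0.0384), at -2.60 on the spike-in scale, lost its call without KI-CDK9d-32 replicate 3 or 4 or vehicle replicate 1, 2 or 4 (0.17 to 0.21, highest adjusted p 0.128). It was also lost without the libraries of high spike-in share (0.19, adjusted p = 0.0955). With KB-0742 at 8 h CD3D was at -0.11 ± 0.09 (adjusted p = 0.31).

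CD3G, which pairs with CD3E in the receptor, followed with smaller steps. At 8 h its vehicle libraries held 207, 208, 211 and 203 CPM, the KI-CDK9d-32 libraries 303, 302, 279 and 242 and the KB-0742 libraries 202, 171, 237 and 201. Only the KI-CDK9d-32 group was clear of vehicle, and CD3G rose there by 0.44 ± 0.10 (SE, adjusted p = 0.000325), at -2.38 on the spike-in scale. Its rises with KI-CDK9d-32 at 2 h (0.31 ± 0.10 SE, adjusted p = 0.0411, spike-in -0.08) and 4 h (0.32 ± 0.11 SE, adjusted p = 0.0203, spike-in -0.68) were less firm. The 2 h call was lost on leaving out KI-CDK9d-32 replicate 2, 3 or 4 or vehicle replicate 1, 2 or 4 (0.22 to 0.32, highest adjusted p 0.219), and the 4 h call without KI-CDK9d-32 replicate 1 or 3 or vehicle replicate 1 or 4 (0.26 to 0.32, highest adjusted p 0.115). With KB-0742 CD3G rose by 0.53 ± 0.10 (SE, adjusted p = 4.52e-05) at 2 h and 0.52 ± 0.11 (SE, adjusted p = 0.000181) at 4 h, with spike-in values of -0.26 and -0.82, and it stood at -0.03 ± 0.10 (adjusted p = 0.835) at 8 h.

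CD247, the zeta chain and main docking site of ZAP70, fell with KB-0742 and was not called with KI-CDK9d-32 at any time under TMM scaling. On the spike-in scale it was called lower with KI-CDK9d-32 at 8 h, as all 10 members were. At 4 h vehicle held 84.8, 55.8 and 50.3 CPM in replicates 1, 3 and 4, KB-0742 33.8, 26.4, 33.4 and 38.7 and KI-CDK9d-32 69.6, 60.9, 53.5 and 35.3. All KB-0742 libraries lay below vehicle, and the KI-CDK9d-32 range overlapped both. CD247 fell with KB-0742 by 0.94 on the log2 scale (-0.94 ± 0.19, adjusted p = 0.000108). At 8 h the value was -0.86 ± 0.18 (SE, adjusted p = 6.31e-05), with 43.8, 35.6, 39.6 and 35.3 CPM against 77.9, 68.6, 69.8 and 63.4 in vehicle. At 2 h it was -0.48 ± 0.17 (SE, adjusted p = 0.0303), a call lost without vehicle replicate 1 (-0.28, adjusted p = 0.274), at 90.8 CPM beside 55.8, 58 and 55.4 in the others, or without KB-0742 replicate 3 (-0.45, adjusted p = 0.0755) or 4 (-0.44, adjusted p = 0.0799). With KI-CDK9d-32 CD247 was at 0.11, -0.20 and -0.09 at 2, 4 and 8 h (adjusted p = 0.769, 0.435 and 0.689).

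ZAP70 went opposite ways with the 2 compounds at 8 h under TMM scaling and was lower with both on the spike-in scale. In vehicle at 8 h it stood at 266, 261, 238 and 272 CPM, with KI-CDK9d-32 at 333, 439, 323 and 414 and with KB-0742 at 69.1, 70.2, 99.3 and 115. The 3 groups did not overlap, with KI-CDK9d-32 on top and KB-0742 lowest. ZAP70 fell with KB-0742 with a change of -1.54 ± 0.12 (SE, adjusted p = 6.7e-16) on the log2 scale, from -0.20 ± 0.12 (adjusted p = 0.181) at 4 h and 0.07 ± 0.11 (adjusted p = 0.676) at 2 h. With KI-CDK9d-32 it rose by 0.62 ± 0.12 (SE, adjusted p = 4.04e-05) at 4 h and 0.54 ± 0.11 (SE, adjusted p = 4.38e-05) at 8 h, against -0.35 and -2.22 on the spike-in scale. At 2 h KI-CDK9d-32 libraries held 348, 358, 323 and 338 CPM and vehicle 287, 252, 252 and 295, without overlap. The 2 h rise of 0.33 ± 0.11 (SE, adjusted p = 0.0378), at -0.09 on the spike-in scale, lost its call without KI-CDK9d-32 replicate 1, 2 or 4 or vehicle replicate 2 or 3 (0.30 to 0.34, highest adjusted p 0.116).

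LCK, the kinase upstream of ZAP70, ended lower with both compounds. At 8 h vehicle libraries held 423, 423, 372 and 382 CPM, KI-CDK9d-32 254, 295, 319 and 309 and KB-0742 258, 269, 343 and 298. Both treated groups lay below vehicle and overlapped each other. LCK fell with a change of -0.45 ± 0.09 (SE, adjusted p = 6.15e-05) for KI-CDK9d-32 and -0.45 ± 0.09 (SE, adjusted p = 4.25e-05) for KB-0742, and in the same direction on the spike-in scale (-3.27 and -1.76). Earlier it had risen with KB-0742, to 542, 568, 571 and 597 CPM at 2 h against 467, 482, 464 and 451 in vehicle, a change of 0.29 ± 0.09 (SE, adjusted p = 0.011) that stood at -0.50 on the spike-in scale. The KB-0742 rise at 4 h (0.27 ± 0.10 SE, adjusted p = 0.0228, spike-in -1.01) was lost without KB-0742 replicate 2 or 4 or vehicle replicate 1 (0.22 to 0.25, highest adjusted p 0.0948), and without the libraries of high spike-in share (0.24, adjusted p = 0.0911). With KI-CDK9d-32 LCK was at 0.12 ± 0.09 (adjusted p = 0.475) at 2 h and 0.24 ± 0.10 (adjusted p = 0.0545) at 4 h, and without the libraries of high spike-in share the latter passed (0.35, adjusted p = 0.0157), as it did without KI-CDK9d-32 replicate 3 alone (0.28, adjusted p = 0.0291).

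LAT, the scaffold phosphorylated by ZAP70, fell with both compounds by 8 h. Vehicle held 166, 161, 181 and 209 CPM, KI-CDK9d-32 41.3, 100.1, 73.8 and 101 and KB-0742 77.2, 70.2, 129 and 128. Neither treated group reached the vehicle range. LAT fell with a change of -1.17 ± 0.19 (SE, adjusted p = 4.22e-06) for KI-CDK9d-32 and -0.82 ± 0.18 (SE, adjusted p = 0.000325) for KB-0742, and the spike-in values were -3.94 and -2.13. At 4 h LAT had fallen with KB-0742 (-0.64 ± 0.19 SE, adjusted p = 0.00994), a call lost without vehicle replicate 4 (-0.55, adjusted p = 0.0537), while with KI-CDK9d-32 it averaged 169 ± 25.6 CPM (SD, n = 4) against 169 ± 18 (n = 3) in vehicle (adjusted p = 0.996). At 2 h it was at 0.08 ± 0.17 and -0.22 ± 0.17 with the 2 compounds (adjusted p = 0.849 and 0.389).

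PTK2B, the calcium-responsive kinase, was low in counts and was higher with KI-CDK9d-32 and lower with KB-0742 at 8 h under TMM scaling, and lower with both on the spike-in scale. At 8 h its counts were 47, 44, 16 and 30 in vehicle, 59, 39, 28 and 67 with KI-CDK9d-32 and 1, 5, 5 and 8 with KB-0742. In CPM these were 12.8, 13.7, 5.64 and 9.71 in vehicle, 38.7, 23.8, 25.8 and 39.2 with KI-CDK9d-32 and 0.452, 2.62, 2.25 and 3.04 with KB-0742. No group overlapped another. PTK2B rose with KI-CDK9d-32 by 1.60 ± 0.31 (SE, adjusted p = 2.97e-05), against -1.16 on the spike-in scale, and fell with KB-0742 with a change of -2.30 ± 0.42 (SE, adjusted p = 9.28e-06), at -3.56 on the spike-in scale. Its fall with KB-0742 at 4 h (-1.26 ± 0.38 SE, adjusted p = 0.00751) rested on vehicle replicate 4, at 20.9 CPM beside 10.6 and 8.1 in the other 2, and without that library it was -0.77 (adjusted p = 0.162). At 2 h it was at 0.51 ± 0.30 for KI-CDK9d-32 and 0.02 ± 0.31 for KB-0742 (adjusted p = 0.323 and 0.981), and at 4 h at 0.49 ± 0.33 with KI-CDK9d-32 (adjusted p = 0.272), which passed without vehicle replicate 4 (0.98, adjusted p = 0.0475).

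PTCRA, the pre-T-cell receptor chain, had few counts and a wide spread. At 8 h it stood at 5.72, 5.3, 5.99 and 7.45 CPM in vehicle, 13.8, 29.3, 17.5 and 2.92 with KI-CDK9d-32 and 5.87, 13.1, 17.1 and 4.56 with KB-0742. The KI-CDK9d-32 values ran from below to above the vehicle range. The rise of 1.36 ± 0.48 (SE, adjusted p = 0.0182) with KI-CDK9d-32 at 8 h, at -1.54 on the spike-in scale, lost its call without replicate 2 of that group (0.88, adjusted p = 0.165). With KB-0742 at 8 h it was at 0.71 ± 0.48 (adjusted p = 0.224), and at 2 and 4 h neither compound gave a call (log2 values 0.19, 0.87, 0.38 and 0.75). Without vehicle replicate 3 at 4 h, PTCRA passed with KI-CDK9d-32 (1.56, adjusted p = 0.0485) and stood at 1.43 with KB-0742 (adjusted p = 0.0704).

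GIMAP5, the survival GTPase of T cells, fell with KI-CDK9d-32 at every time and was not called with KB-0742 under TMM scaling. On the spike-in scale 9 of the 10 members were called lower with KB-0742 at 8 h, beside 6332 of all 11664 genes. At 2 h vehicle held 26.5, 30.0, 48.1 and 24.1 CPM, KI-CDK9d-32 5.57, 8.07, 9.23 and 9.47 and KB-0742 31.5, 18.2, 33.5 and 19.99. Every KI-CDK9d-32 library was below both other groups, which overlapped. GIMAP5 fell with a change of -1.99 ± 0.39 (SE, adjusted p = 0.000613) on the log2 scale at 2 h, with a spike-in value of -2.34. At 4 h its counts with KI-CDK9d-32 were 9, 0, 0 and 2 against 82, 113 and 72 in vehicle, and at 8 h 2, 0, 5 and 3 against 68, 79, 100 and 60. The fitted changes were -4.27 ± 0.58 (SE, adjusted p = 4.42e-07) and -3.80 ± 0.59 (SE, adjusted p = 1.6e-06), with spike-in values of -5.41 and -6.75. These sizes depend on the gene model: reads given to the overlapping gene GIMAP1-GIMAP5 numbered 0, 14, 13 and 0 in the KI-CDK9d-32 libraries at 4 h, 0, 7, 2 and 15 in those at 8 h, and 16, 0 and 0 in vehicle at 4 h. With both genes summed, an alternative chosen after seeing the data, the changes were -1.99, -2.60 and -2.09 at 2, 4 and 8 h, and the calls held (adjusted p = 6.93e-05, 3.18e-06 and 4.26e-05). Without KI-CDK9d-32 replicate 1 at 4 h the value was -6.04, and without replicate 3 at 8 h -4.48. KB-0742 gave -0.32 ± 0.35, 0.53 ± 0.39 and -0.53 ± 0.38 at 2, 4 and 8 h (adjusted p = 0.561, 0.303 and 0.246), and without KB-0742 replicate 1 the 8 h value passed (-0.95, adjusted p = 0.0494).

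Set directly against each other, the compounds differed at 8 h by over 1 log2 unit in PTK2B, GIMAP5, ZAP70 and CD3E with TMM scaling. Of the 10 members 1 was higher and 3 lower with KI-CDK9d-32 than with KB-0742 at 2 h, beside 8.20% and 10.1% of all genes. At 4 h 4 were higher and 1 lower (14.6% and 21.1%), and at 8 h 6 and 1 (28.9% and 29.6%). The labels give no doses, so the times match and the doses may not. PTK2B was higher with KI-CDK9d-32 by 1.75 ± 0.37 (SE, adjusted p = 0.000138) at 4 h and 3.90 ± 0.40 (SE, adjusted p = 9.26e-12) at 8 h, and also on the spike-in scale (2.06 and 2.40). GIMAP5 was lower, at -1.67 ± 0.39, -4.80 ± 0.56 and -3.27 ± 0.62 at 2, 4 and 8 h (adjusted p = 0.00243, 2.02e-08 and 3.19e-05), and at -1.67, -3.04 and -1.63 with the read-through gene added. Without KI-CDK9d-32 replicate 1 its 4 h value was -6.57, and without replicate 3 its 8 h value was -3.96. On the spike-in scale its 2 h value was -1.21 (adjusted p = 0.173).

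ZAP70 was higher with KI-CDK9d-32 by 0.82 ± 0.11 (SE, adjusted p = 4.65e-08) at 4 h and 2.09 ± 0.12 (SE, adjusted p = 1.18e-20) at 8 h, and on the spike-in scale the 8 h value was 0.62 (adjusted p = 0.224). Its 2 h value of 0.26 passed without the libraries of high spike-in share (0.31, adjusted p = 0.0387). CD3E turned: it was lower with KI-CDK9d-32 at 2 h (-0.30 ± 0.10 SE, adjusted p = 0.0302) and higher at 8 h (1.29 ± 0.10 SE, adjusted p = 3.68e-15), while on the spike-in scale these were 0.11 and -0.13. The 2 h difference was lost without KI-CDK9d-32 replicate 1, 2 or 3 or KB-0742 replicate 3 or 4 (-0.30 to -0.25, highest adjusted p 0.123). CD3D moved the same way, from -0.25 ± 0.09 (SE, adjusted p = 0.0399) at 2 h to 0.33 ± 0.09 (SE, adjusted p = 0.0016) at 8 h. On the spike-in scale these CD3D values were 0.16 (adjusted p = 0.917) and -1.18, the latter called lower (adjusted p = 0.014). Its 2 h call was lost without KI-CDK9d-32 replicate 1 or 4 or KB-0742 replicate 2 or 3 (-0.25 to -0.19, highest adjusted p 0.185), or without the libraries of high spike-in share (-0.20, adjusted p = 0.103), and CD3D overlapped between the compounds at 8 h. CD3G was higher with KI-CDK9d-32 at 8 h (0.47 ± 0.10 SE, adjusted p = 0.000129), but on the spike-in scale it was called lower (-1.03, adjusted p = 0.032). CD247 was higher with KI-CDK9d-32 at all times, by 0.59 ± 0.17, 0.74 ± 0.19 and 0.77 ± 0.19 (adjusted p = 0.0104, 0.00152 and 0.000419), and its groups overlapped at 4 h. On the spike-in scale these CD247 values were 0.99, 1.01 and -0.73, and none passed (adjusted p = 0.228, 0.123 and 0.154). LAT was higher with KI-CDK9d-32 at 4 h (0.63 ± 0.19 SE, adjusted p = 0.00735) and at -0.35 ± 0.20 at 8 h (adjusted p = 0.124), where it was lower without KB-0742 replicate 2 (-0.49, adjusted p = 0.0315). LCK gave -0.17 ± 0.09, -0.04 ± 0.09 and 0.01 ± 0.09 (adjusted p = 0.178, 0.786 and 0.955), and PTCRA -0.19, 0.13 and 0.65, none of them called with TMM scaling. On the spike-in scale LCK was called lower with KI-CDK9d-32 at 8 h (-1.51, adjusted p = 0.00207). At that time 5 members were called lower and 1 higher on that scale, beside 6390 and 274 of all genes. Without KI-CDK9d-32 replicate 4 the 8 h value of PTCRA passed (1.03, adjusted p = 0.0466).

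**Figure D4:**
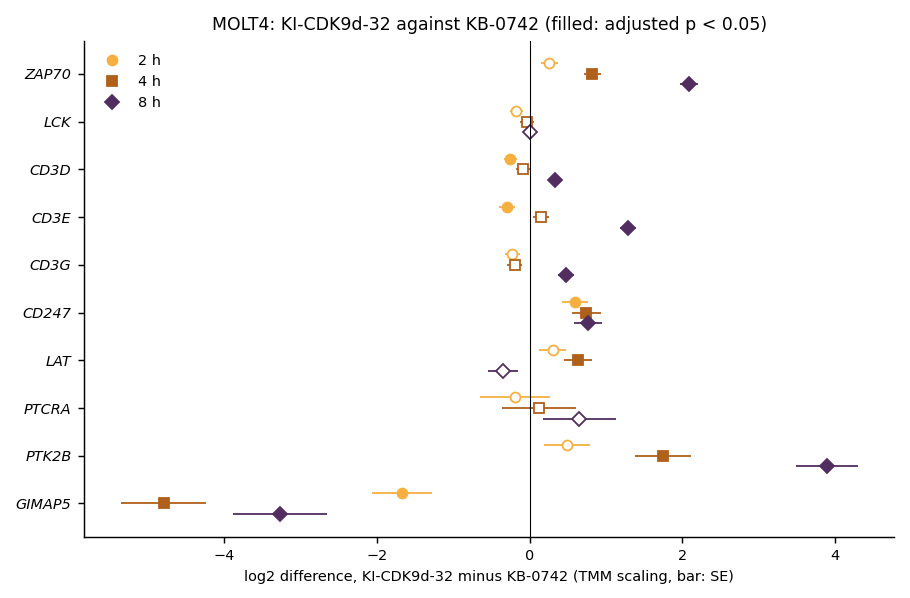
Log2 difference between KI-CDK9d-32 and KB-0742 in MOLT4 at 2, 4 and 8 h for each gene (TMM scaling, bars are SE, filled where the adjusted p is under 0.05). PTK2B and ZAP70 move to the right with time, GIMAP5 lies to the left at all times, and LCK stays near 0.

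The change of each compound's effect from 2 h to 8 h was tested in the same fit. For KI-CDK9d-32, 1 member rose further and 2 went down, beside 10.2% and 15.6% of all genes. The effect on CD3E grew by 1.15 ± 0.14 (SE, adjusted p = 9.82e-09), and those on LAT (-1.25 ± 0.26 SE, adjusted p = 0.000288) and LCK (-0.56 ± 0.13 SE, adjusted p = 0.000538) went down. On the spike-in scale the CD3E term was -1.20 (adjusted p = 0.0632), beside -2.53 for the median gene. For KB-0742, 6 members went down and 0 up, beside 16.6% and 15.8% of all genes. The largest terms were those of PTK2B (-2.31 ± 0.53 SE, adjusted p = 0.000522) and ZAP70 (-1.62 ± 0.16 SE, adjusted p = 2.32e-11). LCK (-0.74 ± 0.13), CD3D (-0.72 ± 0.13), CD3G (-0.56 ± 0.14) and CD3E (-0.44 ± 0.14) lost their early rises (adjusted p = 7.55e-06, 1.32e-05, 0.00184 and 0.0153). On the spike-in scale these 4 terms were -1.26, -1.23, -1.09 and -0.96, further from 0 than with TMM, and none passed (adjusted p = 0.215, 0.221, 0.287 and 0.373). GIMAP5 with KI-CDK9d-32 gave -1.81 ± 0.77 (adjusted p = 0.0809), and -0.10 with the read-through gene added. It passed at -2.50 without KI-CDK9d-32 replicate 3 at 8 h (adjusted p = 0.0373) or without the libraries of high spike-in share (adjusted p = 0.0316), and at -2.08 without vehicle replicate 3 at 2 h (adjusted p = 0.0388). The KI-CDK9d-32 term of PTK2B, 1.09 ± 0.43 (adjusted p = 0.0563), passed without those libraries (1.19, adjusted p = 0.0349) and without vehicle replicate 1 or 2 at 8 h, vehicle replicate 3 at 2 h or KI-CDK9d-32 replicate 2 or 3 at 8 h (1.19 to 1.25). The KB-0742 term of LAT, -0.60 ± 0.25 (adjusted p = 0.0647), passed without KB-0742 replicate 3 (-0.73, adjusted p = 0.0252) or 4 (-0.68, adjusted p = 0.0443) at 8 h.

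In PSN1 and RH4 only LAT and PTK2B could be tested. With KI-CDK9d-32 neither was called in either line, where 0.481%, 7.36% and 20.7% of all genes were called at 2, 4 and 8 h in PSN1 and 5.36% and 15.2% at 4 and 8 h in RH4. PTK2B in PSN1 averaged 25.9 ± 3.81 CPM with KI-CDK9d-32 and 21.7 ± 4.09 with vehicle at 8 h. With KB-0742, PTK2B fell in PSN1 at 8 h, from 18.4, 18.2, 24 and 26.4 CPM in vehicle to 17.7, 18.1, 12 and 7.32, a change of -0.65 ± 0.24 (SE, adjusted p = 0.0337) without overlap. The call was lost without KB-0742 replicate 3 or 4 or vehicle replicate 3 or 4 (-0.60 to -0.46, highest adjusted p 0.157). LAT fell in PSN1 with KB-0742 at 4 h (-1.55 ± 0.53 SE, adjusted p = 0.0272), with 5, 3, 9 and 4 counts against 33, 28, 26 and 5 in overlapping groups, and lost its call without KB-0742 replicate 1, 2 or 4 or vehicle replicate 1, 2 or 3 (-1.56 to -1.27, highest adjusted p 0.102). At 8 h it was at 0.48 ± 0.49 (adjusted p = 0.489). KB-0742 called 23.9% and 30.2% of all genes in PSN1 at 4 and 8 h, and 31.6% and 45.4% in RH4. On the spike-in scale both genes were called lower with KB-0742 at 4 h in PSN1, and 1 at 8 h. Beside them 5269 and 5834 of all 12471 genes were called lower on that scale.

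In RH4 both genes were called lower with KB-0742 at 8 h, at few counts. LAT had 21, 0, 3 and 14 counts in the vehicle libraries and 0 in all 4 KB-0742 libraries, at least 5.66-fold lower by the floor of 3 counts over the group (adjusted p = 0.0156). Since 1 vehicle library was also at 0, the groups touch. PTK2B had 18, 16, 8 and 13 counts in vehicle and 0, 0, 3 and 0 with KB-0742, 8.21-fold lower with a 95% counting interval of 2.67 to 41 (adjusted p = 0.00458), and the groups did not overlap. The fitted log2 values depend on the prior count at such levels: for LAT -5.88 and -5.12 without vehicle replicate 1, and for PTK2B -2.93 and -6.43 without KB-0742 replicate 3, and all 4 passed. The interval covers counting error only. At 4 h LAT had 0, 0, 3 and 0 counts with KB-0742 against 6, 7, 15 and 0 (adjusted p = 0.136), and PTK2B 1, 0, 1 and 3 against 9, 6, 7 and 5 (adjusted p = 0.082). These 4 h values passed without KB-0742 replicate 3 for LAT (adjusted p = 0.0418) and without replicate 4 for PTK2B (adjusted p = 0.0378). On the spike-in scale both genes were called lower with KB-0742 at 4 h and at 8 h, beside 7458 and 9388 of all 12058 genes. With KI-CDK9d-32 neither gene was called in RH4 or PSN1 on that scale.

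The wider pathway was followed in 7 lists of 128 genes other than the members, of which 99 passed the filter in MOLT4. At 8 h 23 of the 99 rose and 33 fell with KI-CDK9d-32, and 15 rose and 36 fell with KB-0742, beside the shares of all genes given above. On the spike-in scale 0 genes of any list were called higher at 8 h with either compound. Called lower there with KI-CDK9d-32 were 9 of 11 receptor chains and coreceptors, 12 of 12 kinases and phosphatases, 16 of 18 adaptors and 25 of 25 effectors. So were 13 of 13 in the pre-T stage and recombination list, 4 of 5 GIMAP genes and 15 of 15 transcription factors. With KB-0742 these numbers were 8, 9, 13, 16, 12, 4 and 11 in the same order. Among 11 receptor chains and coreceptors tested, 5 rose and 4 fell with KI-CDK9d-32 (median 0.86) and 1 rose and 4 fell with KB-0742 (median -0.55). The beta-chain constant genes TRBC1 and TRBC2 are near-identical copies, so the split of their reads is uncertain. TRBC2 went from 3189.7 ± 109 CPM (SD, n = 4) in vehicle to 6681 ± 777 with KI-CDK9d-32 (1.07 ± 0.07, adjusted p = 1.1e-18) and 3790.0 ± 183 with KB-0742 (0.25 ± 0.07, adjusted p = 0.00217), with spike-in values of -1.70 and -1.08. TRBC1 rose with KI-CDK9d-32 (1.12 ± 0.17, spike-in -1.65). The adhesion receptor CD2 fell with KI-CDK9d-32 (-2.12 ± 0.37) and KB-0742 (-1.25 ± 0.32), as did CD5, a brake on receptor signaling (-1.45 ± 0.24 and -0.99 ± 0.22).

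Of 12 kinases and phosphatases of the receptor tested, 1 rose and 5 fell with KI-CDK9d-32 (median -1.0), and 2 rose and 5 fell with KB-0742 (median -0.57). The kinase ABL1 fell with KI-CDK9d-32 (-1.13 ± 0.33) and rose with KB-0742 (1.02 ± 0.27, spike-in -0.29). The phosphatase PTPN2 fell with both (-1.80 ± 0.19 and -0.43 ± 0.16), as did UBASH3A, a suppressor of receptor signaling (-1.96 ± 0.38 and -1.54 ± 0.34), and UBASH3B fell with KB-0742 (-1.26 ± 0.41). Of 18 adaptors 4 rose and 9 fell with KI-CDK9d-32 (median -0.63), and 3 and 5 with KB-0742 (median -0.43). TRAT1, which associates with the receptor, fell with KI-CDK9d-32 (-2.18 ± 0.29) and stood at -0.06 ± 0.23 with KB-0742. NCK1, the actin-linked adaptor, fell with KI-CDK9d-32 (-1.69 ± 0.32) and rose with KB-0742 (1.27 ± 0.24, spike-in -0.02). The GRB2-related adaptors GRAP (-2.75 ± 0.40 and -1.99 ± 0.34) and GRAP2 (-1.02 ± 0.25 and -1.30 ± 0.24) fell with both.

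Among 25 effectors tested 5 rose and 4 fell with KI-CDK9d-32 (median 0.39), and 5 rose and 7 fell with KB-0742 (median -0.65). PRKCQ, the kinase that links the receptor to NF-kB, rose with both (0.80 ± 0.26 and 1.03 ± 0.25), with spike-in values of -2.04 and -0.26. BCL10, its partner further down, fell with KI-CDK9d-32 (-1.68 ± 0.46) and rose with KB-0742 (1.29 ± 0.36, spike-in -0.12). The calcium channel ORAI1 fell with KI-CDK9d-32 (-1.78 ± 0.37), the actin regulator WAS rose with it (0.89 ± 0.24, spike-in -1.97), and the calcium-release channel ITPR3 fell with KB-0742 (-0.91 ± 0.30). Of 13 genes tested in the list named pre-T stage and recombination, 3 rose and 4 fell with KI-CDK9d-32 (median -0.18), and 1 rose and 8 fell with KB-0742 (median -1.16). Membership in that list does not make a gene specific to T cells. DNTT, the terminal transferase of immature lymphocytes, rose with KI-CDK9d-32 (0.95 ± 0.12, spike-in -1.81), as did CD99 (1.55 ± 0.33, spike-in -1.13). The thymocyte markers CD1A (-1.31 ± 0.18) and CD1B (-1.58 ± 0.12) fell with KB-0742, CD1B also with KI-CDK9d-32 (-0.80 ± 0.12). VPREB1, placed in the same list, fell with both (-1.82 ± 0.41 and -2.28 ± 0.40).

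The GIMAP genes stand in 1 cluster on chromosome 7, and 5 of the 7 listed were tested. With KI-CDK9d-32 at 8 h 4 fell and 1 rose (median -2.27), and with KB-0742 2 fell (median -0.29). The gene that rose was the read-through gene GIMAP1-GIMAP5, with 24 counts over the KI-CDK9d-32 group and 0 over vehicle. GIMAP6 went from 14.9 ± 1.51 to 2.44 ± 1.69 CPM with KI-CDK9d-32 (-2.63 ± 0.38, adjusted p = 7.51e-08), and GIMAP7 from 23.8 ± 1.64 to 5.05 ± 3.65 (-2.27 ± 0.38, adjusted p = 1.83e-06). Like GIMAP5, neither was called with KB-0742 under TMM scaling (-0.29 ± 0.28 and 0.13 ± 0.28, adjusted p = 0.404 and 0.732). On the spike-in scale 4 of the 5 GIMAP genes tested were called lower with each compound, beside 10609 (KI-CDK9d-32) and 6332 (KB-0742) of all 11664 genes. GIMAP2 fell with both (-2.43 ± 0.42 and -2.08 ± 0.38). Of 15 T-lineage transcription factors 4 rose and 3 fell with KI-CDK9d-32, and 3 rose and 5 fell with KB-0742. MYB, an activator of T-cell genes, fell with KI-CDK9d-32 from 48.2 ± 4.48 to 14.3 ± 6.01 CPM (-1.70 ± 0.21) and rose with KB-0742 to 158 ± 23.2 (1.72 ± 0.16, spike-in 0.41). TAL1 (-1.52 ± 0.43 and -1.07 ± 0.39) and TCF3 (-0.43 ± 0.16 and -0.84 ± 0.16) fell with both, and IKZF1 rose with KI-CDK9d-32 (0.77 ± 0.22, spike-in -2.0).

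**Figure D5:**
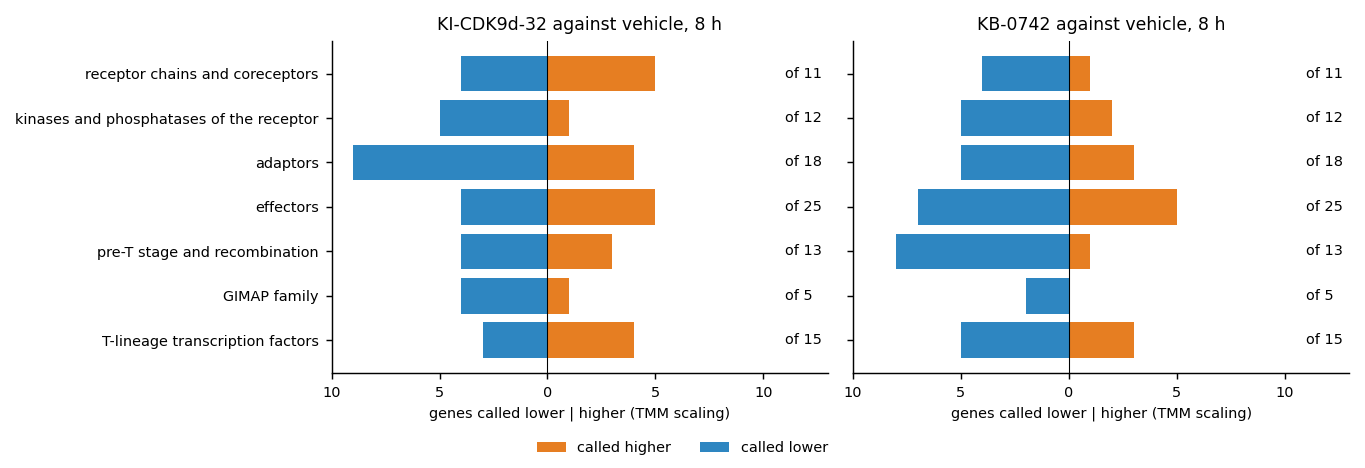
Number of genes in each pathway list called lower (left) or higher (right) than vehicle at 8 h in MOLT4 by TMM scaling, with the number tested at the right. With KI-CDK9d-32 9 of 18 adaptors are lower, and with KB-0742 8 of 13 genes in the list named pre-T stage and recombination are lower.

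Across the 35 MOLT4 libraries, which share the treatments and the scaling, the genes most like each member in log2 CPM were named by Pearson's r as a description. ZAP70 was most like RER1 (0.94) and CDC45 (0.94), LCK like DDX39A (0.96) and RUVBL2 (0.94), and LAT like PUSL1 (0.95) and CD320 (0.92). For CD3D they were ATP5MC3 (0.93) and ATP5PO (0.93), for CD3E MACROH2A1 (0.95) and NDUFV1 (0.94) and for CD3G HPRT1 (0.87) and RNF5 (0.84). CD247 had PPM1K (0.85) and AFF1 (0.84), PTK2B TMEM164 (0.89) and TSPAN3 (0.87), PTCRA MAL (0.60) and PTPN9 (0.58) and GIMAP5 PET117 (0.90) and HILPDA (0.88). Among the members themselves the highest r was between ZAP70 and PTK2B (0.86), followed by CD3E and CD3G (0.71) and LCK and CD3D (0.70). CD3E and GIMAP5 had the lowest (-0.60), and CD3E and LCK, upstream partners in the same pathway, had -0.08.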

How the data were processed

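RNA was measured in MOLT4, PSN1 and RH4 cultures. Per the labels' protocols, spike-in RNA was added equally to each lysate, and libraries were made from 1 ng of RNA by SMART-seq2 with Nextera XT, which keeps neither strand nor molecular identifiers. Salmon and hg38 are the tool and build in the submitters' processing notes; the version and annotation are not given in the sources used here. The authors deposited Salmon's estimated counts (expected counts) per gene, as whole numbers, and log2(TPM + 1) values, whose TPM sum to 1000000 with the spike-ins included. Gene counts per library were 1598283 to 3240753 in MOLT4, 1998712 to 3227113 in PSN1 and 1670111 to 3136769 in RH4.

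Genes passing filterByExpr (minimum count 10), spike-ins left out, were tested on the deposited counts with edgeR 4.0.16 (R 4.3.3) after TMM scaling, in 1 quasi-likelihood fit per line over all its groups, with Benjamini-Hochberg adjustment and a threshold of 0.05. The filter set aside 0.437% of MOLT4 gene counts. Alternatives were spike-in scaling, DESeq2 1.42.0, limma 3.58.1 on the log2 values, no filter, fits of only the groups compared, a replicate block and leaving out each library. Removing libraries of high spike-in share and summing GIMAP5 with GIMAP1-GIMAP5 were chosen after seeing the data. On simulated MOLT4 data at 8 h (11664 genes), 39 of 50 genes doubled and 29 of 50 genes halved were called.

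The members, gene lists and tests were chosen with earlier results of these data known. Named pathway genes were the up to 3 called genes per list with the largest change with each compound at 8 h and a mean log2 CPM of at least 3. A gene that this rule names is not reported here. The labels call the replicates biological and do not say whether cultures were separate, so each p-value reflects only how these samples vary, which may be technical.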

Additional observations from a re-analysis of the deposited data

Results flagged for a closer look

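In 5 groups 1 library stood far from the other 3 in 1 gene. LCK in MOLT4 KI-CDK9d-32 2 h replicate 1 was at 461 CPM, where the other 3 libraries lay between 517 and 525. CD3D in MOLT4 vehicle 8 h replicate 3 was at 1065 CPM, where the other 3 libraries lay between 889.9 and 919. CD3G in MOLT4 KI-CDK9d-32 4 h replicate 4 was at 203 CPM, where the other 3 libraries lay between 256 and 265. CD247 in MOLT4 vehicle 2 h replicate 1 was at 90.8 CPM, where the other 3 libraries lay between 55.4 and 58. PTK2B in MOLT4 KB-0742 4 h replicate 2 was at 2.11 CPM, where the other 3 libraries lay between 6.5 and 6.96. Chance marks about 1 in 20 groups this way, and 80 groups of 4 libraries were examined.

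The effect of a compound in MOLT4 differed between 2 h and 8 h for several members, by the test of that difference in edgeR, on the log2 scale. With KI-CDK9d-32 these were LCK (-0.56, from 0.12 to -0.45, adjusted p = 0.000538), CD3E (1.15, from 0.27 to 1.41, adjusted p = 9.82e-09) and LAT (-1.25, from 0.08 to -1.17, adjusted p = 0.000288). With KB-0742 these were ZAP70 (-1.62, from 0.07 to -1.54, adjusted p = 2.32e-11), LCK (-0.74, from 0.29 to -0.45, adjusted p = 7.55e-06), CD3D (-0.72, from 0.61 to -0.11, adjusted p = 1.32e-05), CD3E (-0.44, from 0.57 to 0.13, adjusted p = 0.0153), CD3G (-0.56, from 0.53 to -0.03, adjusted p = 0.00184) and PTK2B (-2.31, from 0.02 to -2.30, adjusted p = 0.000522).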

How the results depend on the processing

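Scaling was the choice that moved most. With spike-in scaling, the members called were 0 higher (KI-CDK9d-32 2 h), 0 higher (KI-CDK9d-32 4 h), 2 lower (KI-CDK9d-32 4 h), 0 higher (KI-CDK9d-32 8 h), 10 lower (KI-CDK9d-32 8 h), 0 higher (KB-0742 2 h), 0 higher (KB-0742 4 h), 9 lower (KB-0742 8 h), 0 higher (KI-CDK9d-32 against KB-0742 2 h), 0 lower (KI-CDK9d-32 against KB-0742 2 h), 1 higher (KI-CDK9d-32 against KB-0742 4 h), 1 higher (KI-CDK9d-32 against KB-0742 8 h), 5 lower (KI-CDK9d-32 against KB-0742 8 h), 0 higher (KI-CDK9d-32 from 2 to 8 h), 7 lower (KI-CDK9d-32 from 2 to 8 h) and 2 lower (KB-0742 from 2 to 8 h). For KI-CDK9d-32 2 h the direction turned for ZAP70 -0.086, CD3D -0.031 and CD3G -0.080. For KI-CDK9d-32 4 h the direction turned for ZAP70 -0.35, CD3D -0.41, CD3E -0.24 and CD3G -0.68. For KI-CDK9d-32 8 h the direction turned for ZAP70 -2.22, CD3D -2.60, CD3E -1.33, CD3G -2.38, PTCRA -1.54 and PTK2B -1.16. For KB-0742 2 h the direction turned for LCK -0.50, CD3D -0.20, CD3E -0.25 and CD3G -0.26. For KB-0742 4 h the direction turned for LCK -1.01, CD3D -0.66, CD3E -0.67 and CD3G -0.82. For KB-0742 8 h the direction turned for CD3E -1.21. For KI-CDK9d-32 against KB-0742 2 h the direction turned for CD3D 0.16 and CD3E 0.11. For KI-CDK9d-32 against KB-0742 8 h the direction turned for LCK -1.51, CD3D -1.18, CD3E -0.13, CD3G -1.03 and CD247 -0.73. For KI-CDK9d-32 from 2 to 8 h the direction turned for ZAP70 -2.14, CD3E -1.20 and CD3G -2.30. With limma on the deposited log2 TPM, which are scaled with the spike-in RNA included, the members called were 0 higher (KI-CDK9d-32 2 h), 0 higher (KI-CDK9d-32 4 h), 4 lower (KI-CDK9d-32 4 h), 0 higher (KI-CDK9d-32 8 h), 7 lower (KI-CDK9d-32 8 h), 0 higher (KB-0742 2 h), 3 lower (KB-0742 2 h), 0 higher (KB-0742 4 h), 6 lower (KB-0742 4 h), 9 lower (KB-0742 8 h), 1 lower (KI-CDK9d-32 against KB-0742 2 h), 2 higher (KI-CDK9d-32 against KB-0742 8 h), 4 lower (KI-CDK9d-32 against KB-0742 8 h), 0 higher (KI-CDK9d-32 from 2 to 8 h) and 7 lower (KI-CDK9d-32 from 2 to 8 h). For KI-CDK9d-32 2 h the direction turned for ZAP70 -0.039 and CD3G -0.060. For KI-CDK9d-32 4 h the direction turned for ZAP70 -0.23, LCK -0.48, CD3D -0.24, CD3E -0.0062 and CD3G -0.43. For KI-CDK9d-32 8 h the direction turned for ZAP70 -1.20, CD3D -1.51, CD3E -0.32, CD3G -1.15, PTCRA -0.53 and PTK2B -0.024. For KB-0742 2 h the direction turned for LCK -0.35, CD3D -0.029, CD3E -0.072 and CD3G -0.12. For KB-0742 4 h the direction turned for LCK -0.73, CD3D -0.41, CD3E -0.41 and CD3G -0.34. For KB-0742 8 h the direction turned for CD3E -0.76. For KI-CDK9d-32 against KB-0742 2 h the direction turned for CD3D 0.070 and CD3E 0.030. For KI-CDK9d-32 against KB-0742 8 h the direction turned for LCK -0.78, CD3D -0.51, CD3G -0.32 and CD247 -0.23. For KI-CDK9d-32 from 2 to 8 h the direction turned for ZAP70 -1.16, CD3E -0.28 and CD3G -1.09. The TMM fit removes a shift common to most genes by construction, and these scales do not. With DESeq2 the members called were 2 higher (KI-CDK9d-32 against KB-0742 2 h), 1 lower (KI-CDK9d-32 against KB-0742 2 h) and 2 higher (KI-CDK9d-32 from 2 to 8 h), without a filter 1 higher (KI-CDK9d-32 2 h), 1 lower (KI-CDK9d-32 against KB-0742 2 h) and 2 lower (KI-CDK9d-32 against KB-0742 8 h), and in fits of only the groups compared 3 higher (KI-CDK9d-32 against KB-0742 2 h) and 2 higher (KI-CDK9d-32 from 2 to 8 h). Without the libraries of high spike-in share they were 2 higher (KI-CDK9d-32 against KB-0742 2 h) and 2 higher (KI-CDK9d-32 from 2 to 8 h). Leaving out 1 library at a time gave 1 to 2 higher (KI-CDK9d-32 2 h), 0 to 1 lower (KB-0742 2 h), 1 to 3 lower (KB-0742 4 h), 1 to 3 lower (KI-CDK9d-32 against KB-0742 2 h), 1 to 2 lower (KI-CDK9d-32 against KB-0742 8 h) and 1 to 2 higher (KI-CDK9d-32 from 2 to 8 h). The cause of these changes was not tested.

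With the replicate number as a block, the members called were 2 higher (KI-CDK9d-32 against KB-0742 2 h) and 2 lower (KI-CDK9d-32 against KB-0742 8 h). Same-numbered libraries had a correlation over 0.1 in 0 of 136 pairs in MOLT4, 24 of 112 in PSN1 and 10 of 60 in RH4, so not every pair did in any line and the numbers were not taken as pairs. The 10 in RH4 were all of replicate 1, and most of the 24 in PSN1, among them the highest (0.25), were of replicate 4. Whether 1 replicate number marks a shared batch was not tested. Low counts limit PTCRA, PTK2B and GIMAP5 in MOLT4 and both genes tested in RH4.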
